A study of Mus musculus with 18 samples.

Results

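The H3K4me1 landscape of the mouse cerebral cortex was described from 3 ChIP-seq peak lists, 1 for each of 3 animals. All peaks on chromosomes 1 to 19 were taken, which gave 33744 peaks in animal 5, 45575 in animal 7 and 22555 in animal 9. These 101874 peaks are part of the 494199 peaks in the 15 lists of the study, which also cover H3K27ac, RNA polymerase II phosphorylated on serine 5 (PolII_S5P), MBD3 and TDG. The animals were C57BL/6J females of wild-type genotype, 14 weeks old, whose excised cortices were bought frozen from the Jackson Laboratory, and no group received a treatment or carried an engineered allele. The H3K4me1 libraries (antibody Abcam ab176877) were set against the H3K27ac (Abcam ab4729) and PolII_S5P (Abcam ab5408) libraries of the same 3 animals. Whole cortex holds neurons, glia and vessel cells together, so a mark in few cells and a weak mark in many cells cannot be told apart in these lists. Gene positions on the build of the lists were not used here, so regions are given by position and the tissue was not checked against marker genes.

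H3K4me1 is monomethylation of lysine 4 on histone H3, laid down largely by the methyltransferases KMT2C and KMT2D. It covers enhancers, both active ones and ones that are primed, and it also borders active promoters, where the nucleosomes nearest the start site carry H3K4me3 in its place. H3K27ac, made by the acetyltransferases CBP and p300, separates active enhancers and promoters from primed ones, and PolII_S5P is the initiating form of the polymerase, found mostly near start sites. A single active element is therefore often seen as a pair of H3K4me1 peaks on either side of a gap.

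The lists differed in length between animals, and animal 7 had the most and animal 9 the fewest H3K4me1 peaks. Fold enrichment, the authors' ratio of pileup to local background at a peak, had medians of 3.00, 2.86 and 3.18 in the H3K4me1 lists of animals 5, 7 and 9, against 3.69, 3.73 and 3.66 in the H3K27ac lists and 3.82, 4.03 and 3.91 in the PolII_S5P lists. The strongest H3K4me1 peak of an animal reached a fold of 9.75, 9.33 and 9.24, against 26.0, 28.8 and 26.7 for H3K27ac. H3K4me1 thus had the lowest median and the lowest maximum in every animal, by the authors' own values. Read depth is unknown, so the length of a list cannot be told apart from the depth of its library.

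H3K4me1 peaks were narrow. Their median width was 456, 527 and 472 bp in animals 5, 7 and 9, against 665, 630 and 570 bp for H3K27ac and 349, 387 and 363 bp for PolII_S5P. The 3 H3K4me1 medians lay below every H3K27ac median and above every PolII_S5P median. The mean of the H3K4me1 medians was 485 ± 37.2 bp, against 622 ± 48.0 bp for H3K27ac (SD, n = 3 each), a difference of -137 bp with a 2-sided exact permutation p = 0.1 (adjusted p = 0.275 over 11 comparisons). Against PolII_S5P, at 366 ± 19.2 bp, the difference was 119 bp, also with an exact permutation p = 0.1 (adjusted p = 0.275). A p of 0.1 is the smallest that 3 libraries against 3 allow, so none of the 3-against-3 comparisons can pass 0.05. The difference from H3K27ac became -308 bp once peaks within 500 bp of each other were joined in each list, and -232 bp with peaks of a −log10 q of at least 5. That from PolII_S5P became 225 bp with these stronger peaks. With the lists of each mark cut to the shortest of its 3 animals, it was 77.7 bp (exact permutation p = 0.4). The difference from H3K27ac was then -145 bp (exact permutation p = 0.2). In that setting the medians of H3K4me1 overlapped those of both other marks, and the lists still differed in length between marks.

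**Figure D1:**
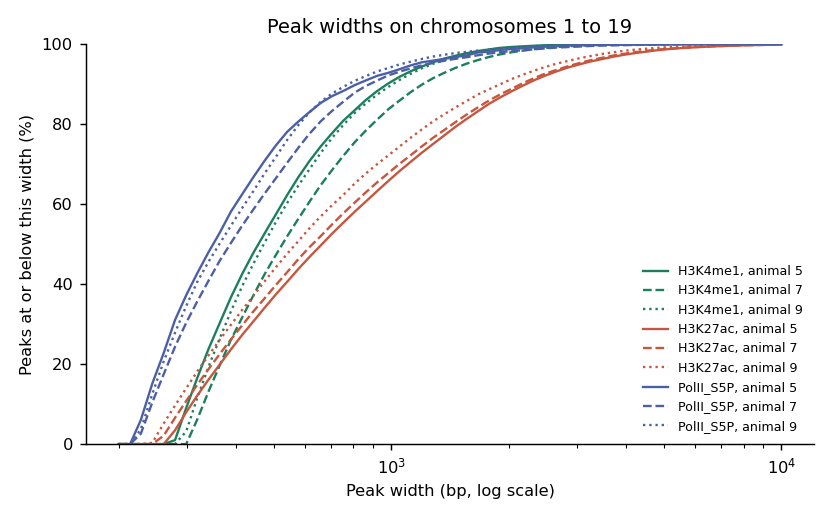
Share of peaks (%) at or below each width (bp, log axis) in the H3K4me1, H3K27ac and PolII_S5P lists, 1 line per animal. The H3K4me1 lines cross 50% between 456 and 527 bp, left of the H3K27ac lines (570 to 665 bp) and right of the PolII_S5P lines (349 to 387 bp).

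Long H3K4me1 peaks were uncommon, as the plot of widths shows. Peaks of 1 kb or more made up 9.42%, 15.8% and 10.3% of the H3K4me1 lists of animals 5, 7 and 9, against 33.6%, 31.7% and 27.3% of the H3K27ac lists and 6.96%, 7.63% and 5.79% of the PolII_S5P lists. They held 27.7 ± 6.44% of the bases under H3K4me1 peaks, against 64.7 ± 3.66% for H3K27ac (SD, n = 3 each). The longest H3K4me1 peak measured 6314, 7420 and 7062 bp, against 35887, 27470 and 19786 bp for H3K27ac. Among the H3K4me1, H3K27ac and PolII_S5P lists, the longest single peak was thus an H3K27ac peak in all 3 animals. These are lengths of called peaks, and the extent of whole marked domains was not tested.

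At the short end, each list stopped at a fixed length. The shortest H3K4me1 peak had 278, 302 and 292 bp, and the shortest gap between 2 peaks of the same list was longer by 1 bp in each animal. The same difference of 1 bp held in all 3 H3K27ac and all 3 PolII_S5P lists, whose shortest peaks were 244 to 266 bp and 220 to 224 bp. The limit is thus a property of each list and differs between the marks. Peaks shorter than 1.5 times the limit of their own list made up 41.9 ± 2.68% of the H3K4me1 lists, against 25.5 ± 0.735% of the H3K27ac lists and 43.1 ± 3.04% of the PolII_S5P lists (SD, n = 3 each). Divided by the shortest peak of its list, the median width was 1.67 ± 0.0684 for H3K4me1, against 2.44 ± 0.0895 for H3K27ac and 1.65 ± 0.0726 for PolII_S5P. In this ratio H3K4me1 stayed below H3K27ac but was close to PolII_S5P, and the part of the limit in the 119 bp difference was not tested.

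Within a list, width went with the other properties of a peak. The peaks of each list were split by width into 5 classes of equal size. From the narrowest to the widest class, the median width ran through 315, 382, 485, 655 and 1065 bp and the median fold through 2.88, 2.93, 2.94, 3.07 and 3.34 (means of 3 animals). The share that overlapped an H3K27ac peak of the same animal was 42.7%, 47.9%, 52.7%, 59.6% and 73.9% in these classes, and the share with PolII_S5P was 2.30%, 3.10%, 3.58%, 4.72% and 9.42%. A wider peak also covers more ground in which an overlap can fall, and the part of this in the trend was not tested. The summit, the point of highest signal, lay in the central of 3 equal parts of the peak in 51.6 ± 0.382% of the narrowest class and in 24.8 ± 0.529% of the class below the widest (SD, n = 3 each). In the widest class the summit was central in 29.2 ± 1.06%.

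H3K4me1 peaks with H3K27ac were wider than those without it in each animal. The median was 507, 604 and 523 bp with H3K27ac, against 404, 462 and 427 bp without it, in animals 5, 7 and 9. Peaks of 1 kb or more made up 16.8 ± 4.73% of the H3K4me1 peaks with H3K27ac and 5.66 ± 2.34% of those without (SD, n = 3 each). H3K4me1 peaks with PolII_S5P had medians of 628, 764 and 639 bp, against 455, 516 and 465 bp without it. These splits compare peaks within 1 library and were not tested.

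The widest region with a peak in all 3 animals lay at chromosome 16, 94396063 to 94404655, and measured 8593 bp after peaks of the 3 animals were joined. Its H3K4me1 fold was 4.28, 4.91 and 4.33 in animals 5, 7 and 9, and it carried H3K27ac in all 3 animals and PolII_S5P in 1. The next were chromosome 6, 113823821 to 113831967 (8147 bp), and chromosome 18, 69666548 to 69673955 (7408 bp). On chromosome 9, the regions at 49528390 to 49535632 and 112049605 to 112056739 measured 7243 and 7135 bp. All 5 carried H3K27ac in 3 animals, while PolII_S5P was found in 1, 3, 2, 0 and 3 animals in this order. The region without PolII_S5P, on chromosome 9 from 49528390, had H3K4me1 folds of 5.17, 4.91 and 5.05.

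The strongest regions by rank of fold enrichment lay elsewhere. The first 4 lay on chromosome 8 within 20024462 to 20708340, and their folds ranged from 5.61 to 9.33 over the 3 animals. They measured 1002 to 3258 bp, and 3 of them carried H3K27ac and PolII_S5P in every animal, while the one at 20144430 to 20145808 had each mark in 1 animal. In order of rank, MBD3 peaks were found there in 1, 2, 3 and 2 animals and TDG peaks in 2, 1, 1 and 0. Input samples were not analysed, so whether the signal at these 4 regions is particular to the marks was not tested. The fifth lay apart from them on chromosome 7, 97444982 to 97446280, with folds of 5.91, 6.02 and 5.92 and both other marks in all 3 animals. No region was among both the 5 strongest and the 5 widest.

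H3K4me1 peaks came in local groups. Gaps of 5 kb or less followed 39.9%, 45.4% and 37.7% of the peaks in animals 5, 7 and 9, against 33.9%, 41.4% and 32.2% when the H3K27ac list of the same animal was cut to the same number of strongest peaks. H3K4me1 was higher in each animal, but the groups overlapped, since animal 7 had more short gaps in both lists. The means were 41.0 ± 3.96% for H3K4me1 and 35.8 ± 4.86% for H3K27ac (SD, n = 3 each), a difference of 5.15 percentage points with an exact permutation p = 0.3 (adjusted p = 0.33). The order depended on the scale and on the length of the lists. For gaps of 1 kb or less, a length chosen after seeing the data, H3K4me1 had 17.3% and H3K27ac 20.3%. This excess of H3K27ac lay in gaps of 303 bp or less, the longest of the shortest gaps of these lists, where H3K4me1 had 0.561% and H3K27ac 4.32%. Above 303 bp and up to 1 kb, also chosen after seeing the data, it was 16.0%, 19.5% and 14.8% for H3K4me1 in animals 5, 7 and 9, against 15.5%, 18.6% and 13.9% for H3K27ac. With the lists as deposited, where H3K27ac has more peaks, 5 kb or less gave 41.0% for H3K4me1 and 50.7% for H3K27ac. The difference was 1.12 points for gaps of 2 kb or less and 8.68 points with peaks within 500 bp joined.

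**Figure D2:**
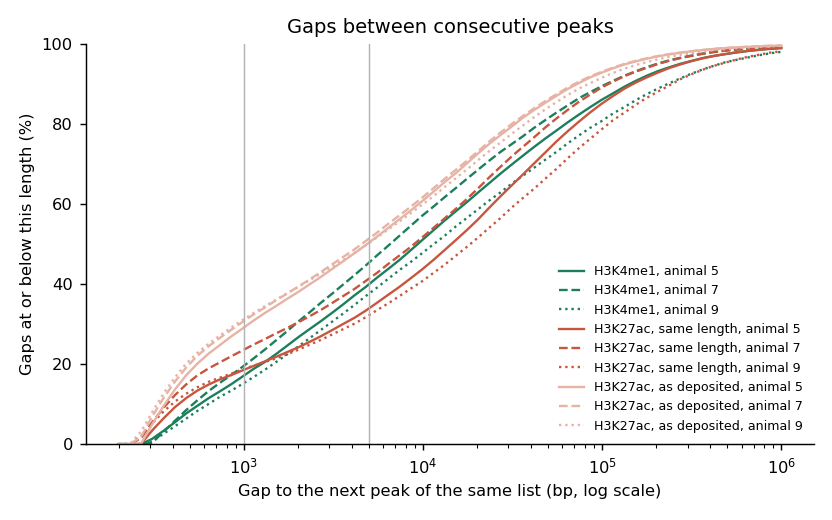
Share of gaps (%) between consecutive peaks of a list at or below each length (bp, log axis), for H3K4me1, for H3K27ac cut to the same number of peaks and for H3K27ac as deposited, 1 line per animal. Grey lines stand at 1 and 5 kb. At 1 kb the H3K4me1 lines (15.3 to 19.6%) lie below the same-length H3K27ac line of their animal, and at 5 kb (37.7 to 45.4%) above it.

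The plot of gaps shows where the lines cross. At 2 kb the shares were 26.6%, 30.5% and 24.3% for H3K4me1, against 24.1%, 30.4% and 23.6% for same-length H3K27ac. At 10 kb they were 51.2%, 57.2% and 47.9% for H3K4me1, against 43.8%, 51.8% and 40.8%. The median gap was 9137 ± 2463 bp for H3K4me1 and 13898 ± 4747 bp for same-length H3K27ac (SD, n = 3 each). H3K4me1 was thus higher at 2, 5 and 10 kb in each of the 3 animals, while its lower share at 1 kb lay in gaps of 303 bp or less.

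Peaks joined across gaps of 5 kb or less form chains. Of all H3K4me1 peaks, 40.4 ± 4.54% stood alone, against 45.3 ± 5.71% of same-length H3K27ac peaks (SD, n = 3 each). Chains of 5 or more peaks held 18.8%, 24.6% and 17.3% of the H3K4me1 peaks in animals 5, 7 and 9, against 12.4%, 18.4% and 10.2% of the H3K27ac peaks. There were 850, 1416 and 539 such H3K4me1 chains, against 587, 1099 and 333 for H3K27ac. Their median span was 13.9 ± 0.635 kb for H3K4me1, of which peaks covered 34.1 ± 2.47%, against 16.2 ± 0.642 kb and 56.8 ± 1.29% for H3K27ac (SD, n = 3 each). An H3K4me1 chain was thus a dotted stretch in which most bases lay outside peaks.

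Peaks in long chains differed from lone ones. In chains of 10 or more the median width was 613 ± 49.0 bp, against 446 ± 28.7 bp for lone peaks (SD, n = 3 each). H3K27ac of the same animal overlapped 70.5 ± 5.00% of the peaks in such chains and 46.9 ± 2.77% of the lone ones. For PolII_S5P the shares were 18.6 ± 11.04% in such chains and 2.06 ± 1.10% for lone peaks, and a peak in another animal was found for 82.9 ± 9.36% and 56.2 ± 14.0%. Chains of 3 or 4 peaks lay between, with H3K27ac at 60.9%, PolII_S5P at 4.58% and another animal at 71.5%. Peaks in longer chains were also wider, and the part of width in these shares was not tested.

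The chain with most regions found in all 3 animals lay at chromosome 6, 31053602 to 31191688, and spanned 138 kb. It held 56, 67 and 51 H3K4me1 peaks in animals 5, 7 and 9, which formed 60 regions, 33 of them in all 3 animals. PolII_S5P touched 59 of these 60 regions in at least 1 animal and H3K27ac 35. In all 3 animals it was 19 regions for PolII_S5P and 15 for H3K27ac, and H3K27ac covered 26.3%, 20.6% and 15.6% of the span.

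The other named chains had other makeups. Chromosome 2, 44907458 to 44997857, had 26 of 44 regions in all 3 animals, H3K27ac in all 3 animals at 43 of the 44, and H3K27ac over 74.9%, 76.7% and 75.9% of the span. Chromosome 15, 77046959 to 77189517, had 24 of 60 regions in all 3 animals, PolII_S5P in at least 1 animal at 4 and H3K27ac in at least 1 animal at 33. Chromosome 11, 30099223 to 30216059, had 23 of 51 regions in all 3 animals, and H3K27ac covered 7.69%, 8.91% and 7.43% of it. The longest, at chromosome 16, 84813640 to 84966985, spanned 153 kb with 26 of 68 regions in all 3 animals. The part of the span under H3K27ac thus ranged from 7.43% to 76.7% over the 5 chains and 3 animals.

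Paired peaks, taken as neighbours with a gap of 200 to 2000 bp, numbered 8978, 13905 and 5477 pairs in animals 5, 7 and 9. They involved 43.6%, 48.5% and 40.0% of the H3K4me1 peaks. The median gap was 744, 731 and 760 bp, and the wider peak of a pair exceeded the narrower by a median factor of 1.56, 1.63 and 1.56. Peaks in pairs had a median width of 526 ± 39.9 bp, against 458 ± 31.2 bp for the others (SD, n = 3 each). H3K27ac overlapped 64.1 ± 3.35% of the paired and 48.5 ± 2.88% of the other peaks, and the part of width in this difference was not tested.

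Polymerase summits were rarer in these gaps than in the flanking peaks. PolII_S5P had 14.0, 62.5 and 54.7 summits per Mb of gap in animals 5, 7 and 9, against 26.8, 120 and 114 per Mb of flanking H3K4me1 peak. The gap was lower in each animal, by a mean log2 ratio of -0.98 ± 0.07 (SD, n = 3), with a 2-sided exact sign-flip permutation p = 0.25, the smallest that 3 animals allow (adjusted p = 0.33). Both values stood above the 1.82, 8.15 and 5.23 summits per Mb over chromosomes 1 to 19 as a whole. A PolII_S5P summit lay in 1.23%, 5.40% and 4.77% of the gaps. For H3K27ac summits the density was 209, 206 and 220 per Mb of gap, against 562, 499 and 532 per Mb of flanking peak, a mean log2 ratio of -1.33 ± 0.09 (SD, n = 3).

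Polymerase in a gap followed no steady trend with its length up to 5 kb. Gaps of up to 500 bp had 13.1, 45.2 and 79.995 PolII_S5P summits per Mb in animals 5, 7 and 9, and those above that and up to 1000 bp had 10.8, 42.7 and 49.5. Gaps over 1000 and up to 2000 bp had 15.6, 75.6 and 51.8, and those up to 5000 bp had 12.1, 52.7 and 46.7. Each animal was thus lower in the second of these classes than in the first, higher in the third and lower again in the fourth. Gaps over 5000 and up to 20000 bp were the lowest in each animal, with 5.40, 24.9 and 25.4 per Mb. The PolII_S5P lists differ in length between animals, so levels were compared within an animal only. The share of gap bases under H3K27ac peaks was 44.9%, 39.2%, 33.6%, 22.4% and 10.95% in these 5 classes, so this coverage was lower in longer gaps. H3K27ac summits took another course, with means of 128, 201, 235, 174 and 103 per Mb of gap. They rose with gap length up to 2000 bp in each animal. A gap can be covered by an H3K27ac peak whose summit lies outside it, and the part of this was not tested. H3K27ac peaks touched 69.4%, 60.1% and 62.8% of the paired gaps and spanned 30.6%, 21.8% and 24.5% from end to end.

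The place of a mark also differed with its strength, taken as 5 classes of equal size by fold in each list. Of the strongest class of PolII_S5P peaks, 2.28 ± 1.45% had their summit in a paired gap, against 11.6 ± 0.546% in any H3K4me1 peak (SD, n = 3 each). In the weakest class the shares were 2.78 ± 1.15% in a gap and 3.73 ± 3.01% in a peak. For H3K27ac the strongest class had 3.15 ± 0.816% in a gap and 27.1 ± 4.45% in a peak, and the weakest 2.49 ± 1.24% and 6.77 ± 4.09%. The strongest class was thus inside H3K4me1 peaks more often than the weakest for both marks, while the mean shares in the gaps differed less. For PolII_S5P the share in a peak did not rise steadily with strength. It was highest in class 4 of 5, at 14.7 ± 2.37% (SD, n = 3), above the strongest class in each animal.

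The gaps themselves were met in another animal less often than the peaks, but the rules differ. A gap is met only by a gap of 200 to 2000 bp, which needs a peak on each side in the other animal. A peak is met by any overlap of at least 1 bp. The part of these rules in the lower shares of the gaps was not tested. Of the gaps of animal 5, 37.8% were met by a paired gap in animal 7 and 21.2% by one in animal 9. For the gaps of animal 9 it was 33.6% in animal 5 and 41.5% in animal 7, and for those of animal 7 it was 26.6% in animal 5 and 18.6% in animal 9. The gap was filled by 1 peak of animal 7 in 16.5% of the cases from animal 5 and 19.9% from animal 9, and by 1 peak of animal 9 in 6.33% and 3.30% of the cases from animals 5 and 7. The animal with the longest list filled the most gaps, so part of the pairs in shorter lists are single peaks in the longer one.

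Counted from animal 5, 1119 gaps occurred in all 3 animals. Their median length was 481 bp, 47.3% were touched by H3K27ac in all 3 animals, and 67 (5.99%) held a PolII_S5P summit in at least 1 animal, of which 11 did so in all 3. The best-ranked of these lay at chromosome 9, 64927789 to 64929382, a gap of 1594 bp. Its PolII_S5P fold was 4.09, 6.76 and 7.36, H3K27ac covered 84.9%, 84.8% and 66.1% of it, and the flanking H3K4me1 peaks measured 679 and 616, 797 and 459, and 618 and 355 bp in animals 5, 7 and 9. The next were chromosome 7, 141455318 to 141456740, chromosome 6, 119364618 to 119366439, chromosome 15, 66110835 to 66111509, and chromosome 1, 37928932 to 37930500. The last of these had H3K27ac over 73.9%, 27.1% and 0% of the gap in animals 5, 7 and 9, while the other 4 had between 60.9% and 100% in every animal.

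H3K4me1 was spread unevenly along the chromosomes. Over 2410 bins of 1 Mb, the median was 9, 13 and 5 peaks in animals 5, 7 and 9, while the fullest bin held 132, 146 and 96. The densest 10% of the bins held 37.1%, 34.8% and 40.5% of the H3K4me1 peaks, against 31.7%, 31.4% and 34.9% of the same-length H3K27ac peaks. H3K4me1 was higher in each animal, with animal 7 of H3K4me1 just below animal 9 of H3K27ac. The mean difference was 4.81 percentage points (37.5 ± 2.83% for H3K4me1 and 32.6 ± 1.95% for H3K27ac, SD, n = 3 each, exact permutation p = 0.2, adjusted p = 0.33). With bins of 5 Mb it was 3.06 points.

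Empty bins were also more frequent for H3K4me1. Bins without a peak made up 17.6 ± 3.24% for H3K4me1, against 11.5 ± 3.02% for same-length H3K27ac (SD, n = 3 each). In all 3 animals 302 bins had no H3K4me1 peak, and 103 of these held an H3K27ac peak in every animal. The longest gap between H3K4me1 peaks was at the same place in each animal, on chromosome 1 from 107573752 to 118250279 in animal 5, and measured 10.7 Mb in all 3. The 10 bins from 108000001 to 118000000 inside it held 11, 8 and 14 H3K27ac peaks. Over chromosomes 1 to 19 as a whole, the deposited H3K27ac lists had 27.6, 28.3 and 24.2 peaks per Mb. This stretch was thus poor in H3K27ac too. For same-length H3K27ac the longest gap was 5.33 ± 0.507 Mb (SD, n = 3).

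The densest stretches were shared. Of the 241 bins in the densest 10%, 179 were the same in all 3 animals. The bin with the highest mean share was chromosome 13 from 43000001 to 44000000, with 132, 146 and 85 H3K4me1 peaks and 126, 141 and 122 H3K27ac peaks in animals 5, 7 and 9. Next came chromosome 16 from 34000001 (124, 142 and 90 H3K4me1 peaks), chromosome 18 from 69000001 (109, 127 and 96), chromosome 6 from 92000001 (99, 119 and 89) and chromosome 14 from 23000001 (111, 133 and 74). The bin on chromosome 18 contains the 7408 bp region given above. These bins held 7 to 17 PolII_S5P peaks in animal 5, 64 to 100 in animal 7 and 40 to 76 in animal 9, apart from the one on chromosome 14, with 0, 40 and 13.

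**Figure D3:**
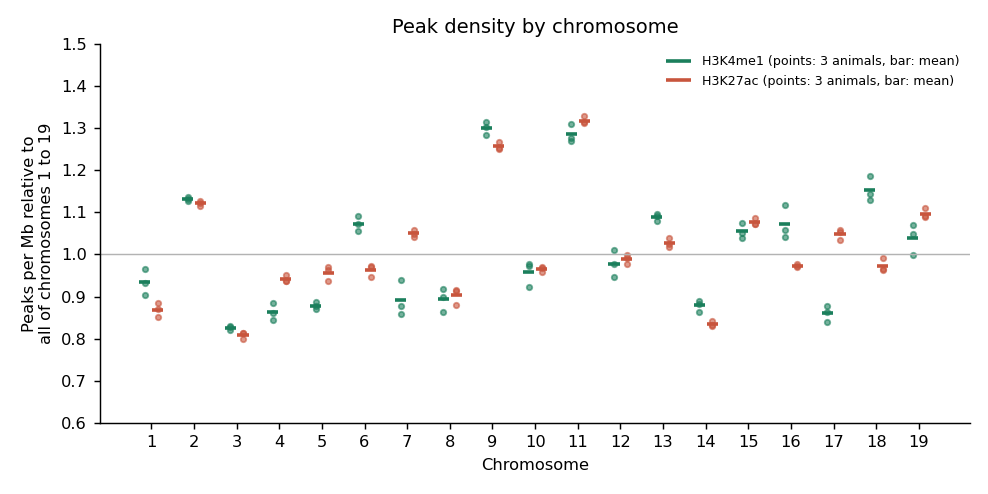
Peaks per Mb on each chromosome divided by the value over chromosomes 1 to 19, for H3K4me1 (left in each pair) and H3K27ac (right), as deposited. Points are the 3 animals and bars their mean, and the axis starts at 0.6. On chromosome 18 the H3K4me1 mean is 1.15 and the H3K27ac mean 0.973, and on chromosome 17 they are 0.860 and 1.05.

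Chromosomes 9 and 11 were the richest in H3K4me1, with 18.4 and 18.2 peaks per Mb averaged over animals, and chromosome 3 the poorest, with 11.7. The 3 animals ordered the chromosomes alike, with Pearson's r between 0.952 and 0.983 over 19 chromosomes and between 0.943 and 0.965 over 2410 bins, given as a description. Relative to the whole list, chromosome 18 held more H3K4me1 than H3K27ac, with ratios of 1.17, 1.18 and 1.20 in animals 5, 7 and 9, and chromosome 6 followed with 1.11, 1.12 and 1.12. The lowest ratios were on chromosome 17 (0.816, 0.834 and 0.811) and chromosome 7 (0.902, 0.836 and 0.811). In every animal the ratios of chromosomes 18 and 6 lay above those of chromosomes 17 and 7. Within each end the order was less clear. Chromosome 16, with 1.07, 1.09 and 1.14, overlapped chromosome 6, and chromosomes 17 and 7 overlapped each other. The plot of density by chromosome shows the relative densities behind these ratios. They come from lists as deposited, and the part of list length in the ratios was not tested.

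The density of H3K4me1 went weakly with that of genes. Across 19 chromosomes, peaks per Mb and protein-coding genes per Mb (counts from the RefSeq table of GRCm38.p6) had an r of 0.077 to 0.280 for H3K4me1 in the 3 animals, against 0.645 to 0.680 for H3K27ac and 0.518 to 0.743 for PolII_S5P. With H3K27ac cut to the same number of peaks its r was 0.222 to 0.549, so the ranges of the marks then overlapped. For H3K4me1 peaks with a −log10 q of at least 5 it was -0.006 to 0.105. Chromosomes 7, 11, 17 and 19 have 14.3, 13.6, 11.5 and 12.2 genes per Mb, and of these chromosome 11 alone was among the 5 richest in H3K4me1. Over 2410 bins, H3K4me1 counts went with H3K27ac counts (r of 0.813 to 0.876) more than with PolII_S5P counts (0.340 to 0.619). These points share libraries, depth and chromosome structure. The PolII_S5P lists are also shorter, with 4351 to 19509 peaks against 57846 to 67877 for H3K27ac. The r of 0.340 came from animal 5, which has the shortest PolII_S5P list, and the part of list length in this difference was not tested.

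About 2 in 3 H3K4me1 peaks were met in another animal. A peak overlapped by at least 1 bp in 1 or 2 other animals was found for 66.0%, 53.7% and 77.6% of the H3K4me1 peaks of animals 5, 7 and 9, against 81.0%, 81.8% and 89.8% of the H3K27ac peaks. In both other animals it was 31.1%, 22.5% and 46.1% for H3K4me1, against 59.5%, 58.2% and 74.98% for H3K27ac. The order of the animals is the reverse of the length of their H3K4me1 lists.

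Width went with reproducibility in every animal. In the widest of the 5 classes 89.7%, 85.7% and 94.9% of the peaks were met in another animal, against 46.9%, 30.8% and 61.4% in the narrowest. The difference averaged 43.8 percentage points (exact sign-flip permutation p = 0.25, the smallest that 3 animals allow, adjusted p = 0.33). Among peaks of middle fold enrichment (class 3 of 5) it was 36.2 points. When at least 0.5 of the peak had to be covered, it was 28.7 points, and when the summit had to lie in a peak of another animal, a rule added after seeing the data, 33.7 points. Fold enrichment separated the peaks less at its lower end, with 55.0% met in another animal in the weakest of 5 classes, 55.8% in the next and 84.5% in the strongest.

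**Figure D4:**
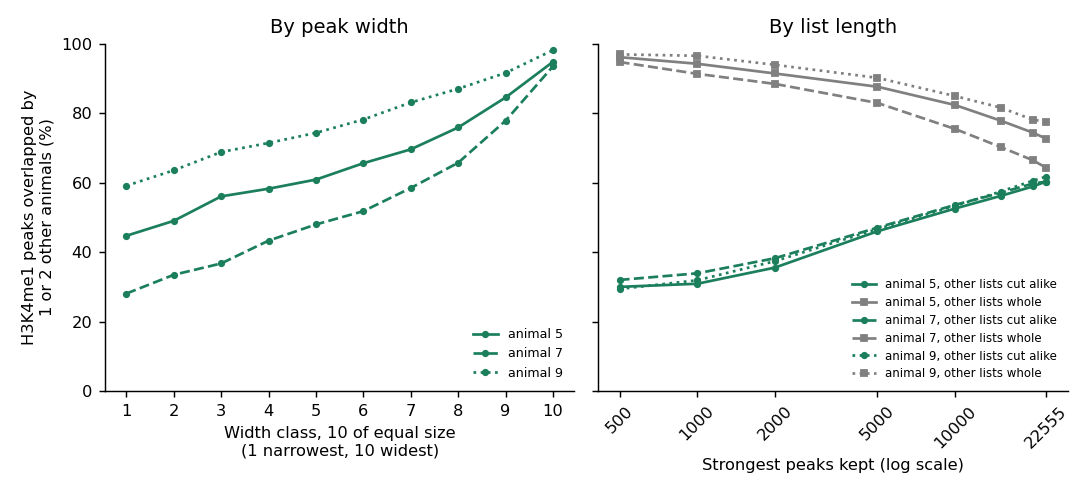
Share of H3K4me1 peaks (%) overlapped by a peak of 1 or 2 other animals. Left: by width in 10 classes of equal size, 1 line per animal. Right: by the number of strongest peaks kept (log axis), with the other lists cut alike (circles) or whole (squares). Cut alike, the 3 animals run from 29.4 to 32.0% at 500 peaks up to 60.3 to 61.8% at 22555, while against whole lists they run from 94.8 to 97.0% down to 64.3 to 77.6%.

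How list depth bears on reproducibility depended on what the lists were set against. Cut alike by fold enrichment, the 1000 strongest H3K4me1 peaks of each animal met each other in 30.9%, 33.9% and 31.9% of the cases, against 60.4%, 60.3% and 61.8% at the length of the shortest list, 22555 peaks. The difference was -28.6 percentage points (exact sign-flip permutation p = 0.25, adjusted p = 0.33). The cut lists cover 1.11 Mb at 1000 peaks and 14.7 Mb at 22555, so more ground is there to be met at greater depth. Against the whole lists of the other animals the same 1000 peaks were met in 94.3%, 91.4% and 96.6%, and the 22555 in 72.7%, 64.3% and 77.6%, which is the opposite order. The strongest H3K4me1 peaks of 1 animal were thus nearly always present in another, at a different rank. With 5000 peaks in place of 1000 the difference was -14.2 points, and among peaks of a −log10 q of at least 5 it was -14.6 points.

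The 1000 strongest H3K27ac peaks met each other in 62.9 ± 7.42% of the cases, against 32.2 ± 1.53% for H3K4me1 in the same cut (SD, n = 3 each; the H3K4me1 animals all lay lower). Ranked by −log10 q it was 32.7 to 34.2% for H3K4me1 and 78.7 to 83.0% for H3K27ac. At 22555 peaks by fold it was 60.8 ± 0.829% for H3K4me1 and 81.9 ± 2.88% for H3K27ac. The cut H3K4me1 lists also covered less ground, with 1.11 Mb against 3.21 Mb for H3K27ac at 1000 peaks and 14.7 Mb against 35.8 Mb at 22555, and the part of this in the difference was not tested.

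Joining the H3K4me1 peaks of the 3 animals where they overlap gave 62691 regions. Of these, 37630 had a peak in 1 animal, 14947 in 2 and 10114 in all 3, with median widths of 408, 706 and 1156 bp. The regions of 1 animal came from animal 7 in 21089 cases, animal 5 in 11485 and animal 9 in 5056. H3K27ac was present in all 3 animals at 25.8%, 43.6% and 61.2% of the regions found in 1, 2 and 3 animals, and PolII_S5P in at least 1 animal at 4.61%, 8.28% and 17.6%. An H3K27ac peak of at least 1 animal was met by 50.7%, 68.2% and 79.8% of the regions in the same order. Regions found in more animals were also wider, and the part of width in these shares was not tested.

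More than 1 in 2 H3K4me1 peaks lay on an H3K27ac peak of the same animal. The overlap was 58.7%, 53.6% and 53.7% of the H3K4me1 peaks in animals 5, 7 and 9, against 60.8%, 61.1% and 59.6% when PolII_S5P peaks were set against the same H3K27ac lists. Every H3K4me1 value lay below every PolII_S5P value. The mean difference was -5.16 percentage points (55.3 ± 2.94% for H3K4me1 and 60.5 ± 0.829% for PolII_S5P, SD, n = 3 each, exact permutation p = 0.1, adjusted p = 0.275). It was -9.75 points with peaks of a −log10 q of at least 5 and -8.18 points with peaks within 500 bp joined. With the H3K27ac list of another animal it was -6.19 points (exact permutation p = 0.4). When at least 0.5 of the peak had to be covered, it was -6.77 points (exact permutation p = 0.2). In both of these settings the H3K4me1 and PolII_S5P values overlapped.

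The H3K4me1 peaks off H3K27ac were still near it. Their median distance to the nearest H3K27ac edge was 2916, 3422 and 3661.5 bp, against 33559, 7213 and 9078 bp for PolII_S5P peaks. On the log10 scale the means differed by -0.593 (exact permutation p = 0.1, adjusted p = 0.275), and by -0.359 without animal 5, whose PolII_S5P list was the shortest. Within 10 kb of H3K27ac lay 89.2%, 87.1% and 86.4% of all H3K4me1 peaks, and 2.58 ± 0.459% lay over 50 kb away (SD, n = 3). Of the H3K4me1 peaks within 2 kb without overlap, 63.0% were met in another animal, of those at 2 to 10 kb 53.8%, at 10 to 50 kb 46.6%, and beyond 50 kb 39.3%, against 74.4% of the overlapping ones. The overlapping peaks were also wider, with a mean median width of 545 bp against 402 bp beyond 50 kb. The part of width in these shares was not tested.

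**Figure D5:**
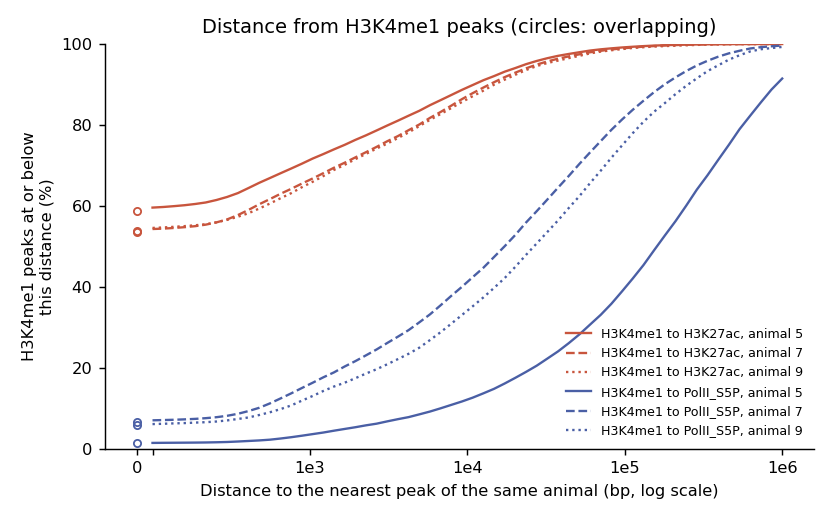
Share of H3K4me1 peaks (%) at or below each distance (bp, log axis) to the nearest H3K27ac or PolII_S5P peak of the same animal, 1 line per animal, with the overlapping share as circles at 0. The H3K27ac lines start at 53.6 to 58.7%, and the PolII_S5P lines start at 1.36 to 6.72% and lie apart by animal.

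Where both marks overlapped, their summits often lay apart. The median distance between the summits of an H3K4me1 peak and the nearest H3K27ac summit was 298, 277 and 276 bp in animals 5, 7 and 9. It was at most 150 bp in 37.2 ± 0.955% of the overlapping H3K4me1 peaks and over 500 bp in 35.7 ± 1.85% (SD, n = 3 each). The H3K4me1 peak lay wholly inside H3K27ac in 57.8%, 46.5% and 50.8% of these cases. H3K27ac covered 55.3%, 48.1% and 48.3% of all H3K4me1 bases. In the other direction, 26.1%, 32.8% and 19.2% of the H3K27ac peaks carried H3K4me1, in the order of the H3K4me1 list lengths.

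Few H3K4me1 peaks lay on polymerase. PolII_S5P of the same animal overlapped 1.36%, 6.72% and 5.79% of the H3K4me1 peaks in animals 5, 7 and 9, against 3.81%, 16.2% and 12.4% of the H3K27ac peaks. H3K4me1 was lower in each animal, but animal 5 was low for both marks and the groups overlapped. The means were 4.62 ± 2.87% for H3K4me1 and 10.8 ± 6.36% for H3K27ac (SD, n = 3 each), a difference of -6.20 percentage points with an exact permutation p = 0.3 (adjusted p = 0.33). With lists of equal length over animals it was -2.39 points, and when at least 0.5 of the peak had to be covered, -0.315 points, with 2.29% for H3K4me1 and 2.61% for H3K27ac.

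The H3K4me1 peaks off polymerase were still nearer to it than H3K27ac peaks. Their median distance was 164968, 20740 and 30950 bp for H3K4me1, against 201328, 37471 and 54670 bp for H3K27ac. On the log10 scale this is a difference of -0.197 (exact permutation p = 0.5, adjusted p = 0.5), lower for H3K4me1 in each animal, and with lists of equal length over animals it was -0.086. Of the H3K4me1 peaks off PolII_S5P, 2.21%, 9.92% and 7.43% lay within 1 kb of it, against 0.788%, 4.12% and 3.69% of the H3K27ac peaks. By the overlap of 1 bp H3K4me1 was thus lower on polymerase, and by the distance of 1 kb higher beside it, in each animal. H3K27ac peaks are wider, with a median of 622 bp against 485 bp for H3K4me1, and the part of width in these shares was not tested.

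The polymerase values followed the PolII_S5P list used. Lists of 4351, 19509 and 12526 PolII_S5P peaks came from animals 5, 7 and 9, and the H3K4me1 peaks of animal 5 overlapped them in 1.36%, 6.96% and 4.75% of the cases. For the H3K4me1 peaks of animal 7 the shares with the same 3 lists were 1.02%, 6.72% and 4.15%, and for those of animal 9 they were 1.40%, 7.95% and 5.79%. The mean over lists of the same animal, 4.62%, was thus close to that over lists of different animals, 4.37%. For H3K27ac these means were 55.3% and 53.0%. Where PolII_S5P did overlap, the H3K4me1 summit was 156, 225 and 210 bp from the nearest PolII_S5P summit in the median and lay inside the PolII_S5P peak in 62.0 ± 2.54% of the cases (SD, n = 3).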

How the data were processed

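ChIP-seq peak lists of H3K4me1, H3K27ac and PolII_S5P from 3 mice were used, and input samples were not analysed here. The numbers 5, 7 and 9 mark animals per the labels, so they pair the samples, and replicates are separate animals. Deviations of counts per 1 Mb bin from the group mean had a mean r of 0.113 between H3K4me1 and H3K27ac of the same animal, against -0.056 between different animals. Such deviations sum to 0 over the 3 animals, so the second value largely follows from the first and adds no separate evidence of pairing. Between H3K4me1 and PolII_S5P the r was 0.008 to 0.155 within animals and -0.187 to 0.100 between them, so these ranges overlapped. The submitters' processing notes list MACS2 2.2.7.1, Picard 2.18.29, SAMtools 1.16.1, bcl2fastq 2.20 and Trim Galore 0.6.7, and the builds mm39 and hg38. Aligner and control were not given in the sources used here. Contig names in the deposited files belong to mm39, and positions are counted from 1 on that build.

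The authors deposited 1 list per library, not pooled, with a fold enrichment (a ratio of pileup to local background), a −log10 q-value and a summit offset in bp, which is another kind of number. The deposited fold served to rank and describe peaks within a list and the −log10 q-value to filter them. Read depth per library is unknown, and the number of peaks in a list is no measure of it alone.

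Values were computed per library on chromosomes 1 to 19, and libraries, not peaks, are the replicates. Overlap means at least 1 bp, distances run between edges, and bins count peak midpoints. Tests were 2-sided exact permutations of 3 against 3 libraries or exact sign flips over 3 animals, with Benjamini-Hochberg adjustment over 11 comparisons and a threshold of 0.05. Same-length H3K27ac lists hold the strongest peaks by fold, as many as the H3K4me1 list of that animal. Regions were named by rule: the 5 strongest and 5 widest in all 3 animals, the 5 chains with most such regions, the 5 densest bins and the 5 shared gaps with the best PolII_S5P rank. Members and lists were chosen with earlier results of these data known. The marker check of the tissue was not run, since the gene table is on GRCm38.p6, which served only for genes per chromosome.

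Alternatives covered the q-value, equal list lengths, chromosomes X and Y, joined peaks, overlap, gap and bin sizes, ranking, the list of another animal, each animal left out and the pairing. Interval code was tested on simulated lists. Tools were matplotlib 3.10.9, pandas 2.3.3, scipy 1.17.1, numpy 2.4.6 and Python 3.11.15.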

Additional observations from a re-analysis of the deposited data

Results flagged for a closer look

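The animals are female, yet the H3K4me1 lists hold 6, 5 and 7 peaks on chromosome Y in animals 5, 7 and 9, above the fixed limit of 3 used for flagging. The source of these peaks was not tested. The H3K27ac lists of the same animals hold 15, 14 and 13 there. On sequences other than chromosomes 1 to 19, X, Y and M, animals 7 and 9 have 5 and 10 H3K4me1 peaks. The peaks on chromosome Y and on these other sequences were left out of the report, and with chromosomes X and Y included each of the 11 comparisons kept its direction.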

How the results depend on the processing

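Of 108 alternative values for the 11 comparisons, 10 equal the reported one by construction, and 96 of the other 98 kept the direction. The 2 that turned it both concern gaps of 5 kb or less: with lists as deposited the difference between H3K4me1 and H3K27ac was -9.66 percentage points, and for gaps of 1 kb or less, chosen after seeing the data, it was -3.00 points. With animals left out in turn, that difference ranged from 4.73 to 5.72 points, the width difference from H3K27ac from -156 to -101 bp and that from PolII_S5P from 108 to 125 bp. The density difference ranged from 4.43 to 5.48 points and the paired-gap log2 ratio from -1.001 to -0.94. Reproducibility differed by 44.6 to 49.1 points with width and by -26.9 to -23.8 points with list depth. Here a peak can be met in only 1 other animal, not in 1 or 2. These ranges are thus of another measure than the main values of 43.8 and -28.6 points, which lie outside them. For H3K27ac the overlap difference ranged from -6.70 to -3.96 points and the log10 distance from -0.728 to -0.359, and for PolII_S5P from -8.07 to -4.54 points and from -0.252 to -0.167.

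With the replicate block, which pairs libraries by animal, a difference is the same by construction in this balanced design, for example -137 bp for width against H3K27ac, and only the test changes, to an exact sign-flip p = 0.25, the smallest that 3 animals allow. No test here can reach 0.05, so no p speaks to stability. The unknown depth limits every comparison of list lengths, and the shortest peak of a list (278 to 302 bp for H3K4me1) limits its widths and gaps.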
